A study of Mus musculus with 12 samples.

Results

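The genes described are the matrix metalloproteinases (MMPs), the ADAMTS proteases and the tissue inhibitors of metalloproteinases (TIMPs). They were taken by name, as every gene of the deposited tables whose symbol was Mmp with a number and an optional a or b, Adamts with a number, or Timp1 to Timp4. This gave 46 of 55487 genes, with 23 MMP, 19 ADAMTS and 4 TIMP genes. Levels are in TPM, a unit that gives each gene's part of all transcripts of a library after scaling by length. A group mean of 0.3 TPM or more was reached in at least 1 group by 41 of the 46, and in all 4 groups by 35.

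RNA was sequenced from full-thickness punch wounds on the backs of male C57BL/6JNarl mice, 6 weeks old, each of which carried 2 wounds. Wounds of the sham group received Pluronic F127 gel alone, and CAP-treated wounds received 10 µM capsaicin (CAP) in the same gel, once daily. The wound with its surrounding skin was collected at day 3 or day 6, giving 3 libraries in each of 4 groups (sham day 3, CAP day 3, sham day 6 and CAP day 6). The sources used here do not say whether libraries of a group share a mouse. Thus n stands for libraries, and the p-values weigh differences against the spread between these samples, part of which may be technical. If libraries of a group shared a mouse, that spread would leave out variation between mice and the p-values would be too small.

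MMPs are zinc enzymes made as inactive precursors, which together can cut most proteins of the extracellular matrix. Collagenases cut intact fibrillar collagen, gelatinases cut denatured collagen and basement membrane collagen, and stromelysins have a broad range of substrates and can activate other MMPs. ADAMTS proteases cut proteoglycans or trim procollagen, and TIMPs bind the active enzymes and block them. In skin wounds these enzymes are known from migrating keratinocytes, fibroblasts and invading leukocytes.

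Of the 23 MMP genes, 10 lie side by side on chromosome 9 within 427 kb (chr9:7272514-7699585, build GRCm38), in the order Mmp13, Mmp12, Mmp1b, Mmp3, Mmp1a, Mmp10, Mmp8, Mmp27, Mmp20 and Mmp7. Since 5 of these genes rose in sham wounds, the sequences just before the start sites of the 8 expressed cluster genes are shown. Each line gives 120 bases of RefSeq sequence (build GRCm38.p6) on the strand of the gene, 5′ to 3′, from 110 bases before the annotated start to 9 after it. Capitals mark the AP-1 heptamer TGAGTCA or its reverse complement TGACTCA, the letters known as the binding sequence of the FOS and JUN transcription factors.
Mmp13: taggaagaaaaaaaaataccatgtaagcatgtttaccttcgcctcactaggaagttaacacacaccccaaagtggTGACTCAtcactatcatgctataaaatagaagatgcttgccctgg
Mmp12: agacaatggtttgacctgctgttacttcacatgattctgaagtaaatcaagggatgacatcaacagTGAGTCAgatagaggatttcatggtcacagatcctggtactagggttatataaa
Mmp1b: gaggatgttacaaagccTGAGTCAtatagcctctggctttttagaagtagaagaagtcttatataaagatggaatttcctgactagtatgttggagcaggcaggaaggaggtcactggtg
Mmp3: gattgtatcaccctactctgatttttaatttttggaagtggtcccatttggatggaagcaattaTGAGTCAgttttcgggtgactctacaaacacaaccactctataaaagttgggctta
Mmp1a: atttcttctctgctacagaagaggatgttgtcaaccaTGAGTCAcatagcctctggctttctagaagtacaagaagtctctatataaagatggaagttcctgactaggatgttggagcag
Mmp10: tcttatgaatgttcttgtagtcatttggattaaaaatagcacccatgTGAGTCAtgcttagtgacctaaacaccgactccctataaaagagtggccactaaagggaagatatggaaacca
Mmp8: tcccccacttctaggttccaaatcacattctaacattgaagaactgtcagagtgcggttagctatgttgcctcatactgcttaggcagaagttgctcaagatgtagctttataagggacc
Mmp27: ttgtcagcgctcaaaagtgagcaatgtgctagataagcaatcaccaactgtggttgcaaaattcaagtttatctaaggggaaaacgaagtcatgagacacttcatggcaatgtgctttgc
The stretches lie at chr9:7272404-7272523 for Mmp13, chr9:7347264-7347383 for Mmp12, chr9:7388017-7388136 on the minus strand for Mmp1b, chr9:7445712-7445831 for Mmp3, chr9:7464031-7464150 for Mmp1a, chr9:7502232-7502351 for Mmp10, chr9:7558319-7558438 for Mmp8 and chr9:7571286-7571405 for Mmp27. Mmp12 has 2 annotated starts, and the heptamer is in the window of the downstream one.

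The heptamer was searched on both strands of the 300-base windows that the RefSeq table gives around gene starts. Windows of members on chromosome 18, where Adamts19 lies, were left out. The windows searched covered 32 of the 46 members, all 10 genes of the cluster among them. The heptamer was found in 7 of the 10 cluster genes and in 0 of the 22 other members with a searched window. Among the 14 members without a searched window are Mmp2, Mmp9, Mmp19 and Adamts4, so the heptamer was not looked for there. Over the whole table, 5.20% of windows and 5.95% of genes hold it. Its first base lies 35 bases before the start in Mmp13, 44 in Mmp12, 46 in Mmp3, 63 in Mmp10 and in Mmp7, 73 in Mmp1a and 93 in Mmp1b. The windows of Mmp8, Mmp27 and Mmp20 do not contain these letters. The letters TATAAA were found in 9 of the 10 cluster genes and 2 of the 22 others (13.6% of all windows, 15.7% of all genes). The PEA3 letters AGGAAG were found in 15 of the 32 (35.4% of all windows, 38.4% of all genes). These matches describe letters and are not evidence of binding. Neighbouring genes of the cluster share ancestry, so the matches are not independent of each other.

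The 3 families covered more than 3 orders of magnitude in level. TPM is scaled by transcript length, so levels can be set beside each other between genes. Averaged over the 4 groups, Mmp2 was the most abundant member (473 TPM), followed by Timp2 (449 TPM), Timp1 (420.5 TPM), Mmp14 (376 TPM), Mmp3 (305 TPM) and Mmp9 (117 TPM). Mmp2, Mmp14 and Mmp3 together held 62.8% to 76.4% of the summed MMP level of a library. Within the ADAMTS family, Adamts1, Adamts2, Adamts5 and Adamts15 together held 65.8% to 76.6% of the sum. At the other end, Mmp7, Mmp20 and Mmp21 were listed at 0 in all 12 libraries, and Mmp24 and Adamts13 stayed under 0.3 TPM in every group, with highest group means of 0.210 TPM and 0.141 TPM. Just above that limit were Timp4 (0.464 TPM), Adamts20 (0.507 TPM) and Adamts8 (0.531 TPM) in their highest group.

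**Figure D1:**
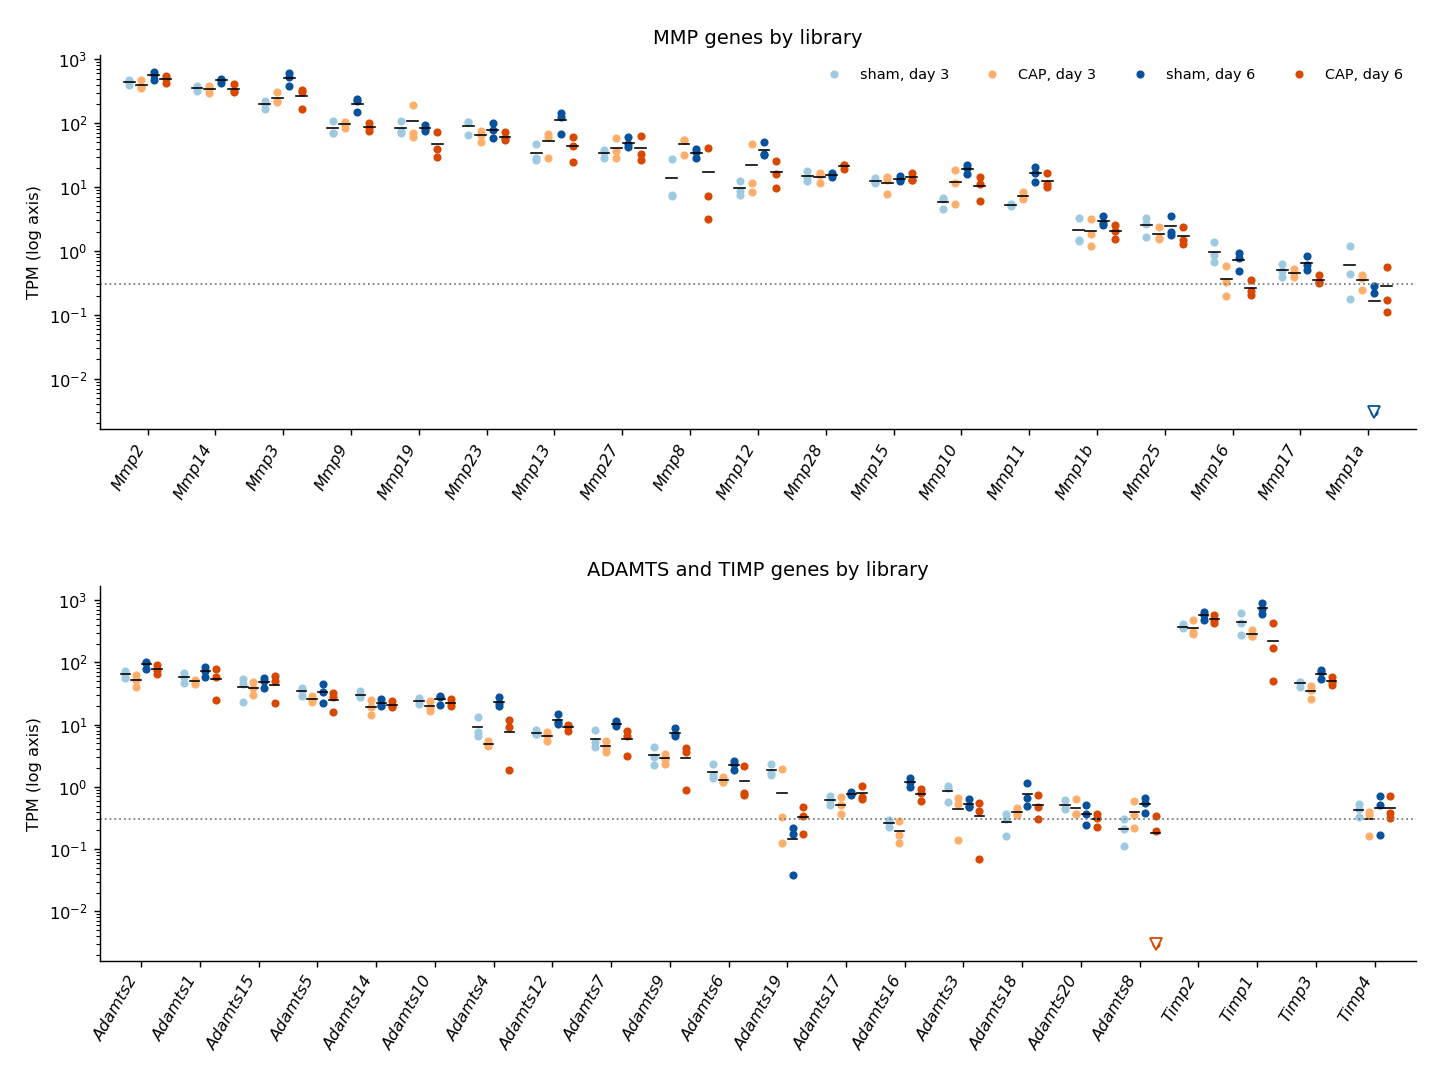
TPM of the 41 members that reached a mean of 0.3 TPM in at least 1 group, MMP genes above and ADAMTS and TIMP genes below, each sorted by mean level. Points are libraries, coloured by group, short bars are group means, the dotted line is 0.3 TPM, the axis is logarithmic, and an open triangle at the bottom is a library in which the gene was listed at 0. Mmp2, Timp2 and Timp1 lead, and the libraries of Mmp8, Mmp12 and Timp1 spread more widely than those of Mmp2 or Timp2.

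Groups were compared on the scale log2(TPM + 0.1) with limma, over all genes whose means reached 0.3 TPM in both groups, and a fold given below is on that scale, which understates the change of low genes. A gene was called, and is said to have risen or fallen, where the unadjusted p was under 0.05 and the groups differed 2-fold or more, the rule of the study's methods. Adjusted p-values are by Benjamini-Hochberg over all genes tested. Beside them, a 2-sided exact permutation test of 3 against 3 libraries cannot give a p under 0.1. TPM carries no read counts, so depth is unknown and counting error cannot be given. In whole wound tissue, fewer cells of a type and less RNA per cell cannot be told apart.

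Among the comparisons of 2 groups, that of day 6 with day 3 in the sham group moved the largest number of members. Of 36 members tested, 9 rose and 0 fell, against 2.13% of all 18368 genes tested that rose and 1.61% that fell. The risen genes were Mmp3, Mmp8, Mmp9, Mmp10, Mmp11, Mmp12, Mmp13, Adamts4 and Adamts9. In each the libraries of the 2 days did not overlap. The calls came from these same libraries, so this is not separate support, and the share of all genes without overlap was not counted. With limma, 6 of the 9 passed an adjusted p of 0.05, as did 420 genes in all. The adjusted count was 9, 2 and 0 without replicates 1, 2 and 3 of day 3 and 2, 4 and 4 without those of day 6, while the 9 calls held without each. The median log2 difference of the 36 members was 0.40, beside 0.00 over all genes.

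Sums of cell type markers also moved between the days in sham wounds. That of 10 endothelial markers was 168, 135 and 165 TPM at day 3 and 384, 335 and 454 TPM at day 6, and that of mast cell markers 120.3, 139 and 111 TPM and 252, 165 and 231 TPM, both higher at day 6 without overlap. The monocyte and macrophage sum was also higher at day 6 and the keratinocyte sum lower, both without overlap (values by library are given with Mmp12 and with the keratinocyte markers). In the monocyte and macrophage list only Lyz2 did not overlap, at 3954, 2641 and 3212 TPM at day 3 and 6110, 5356 and 8049 TPM at day 6. In the keratinocyte list Krt1, Krt10, Krt5 and Trp63 overlapped between the days. The skeletal muscle sum was 5672, 6888 and 4646 TPM at day 3 and 4290, 3031 and 3009 TPM at day 6, lower without overlap, while the neutrophil and fibroblast sums overlapped. The part of these cells in the rise of the members was not tested.

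In CAP-treated wounds the same interval gave 0 risen members and 1 fallen, Mmp8, of 37 tested. The background was 1.27% of 18202 genes higher and 1.52% lower, and the median log2 difference was 0.00 over the members and -0.05 over all genes. By limma 0 members passed the adjusted threshold, and 6 had an unadjusted p under 0.05.

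At day 6, 6 of 37 members were lower in CAP-treated wounds than in sham wounds and 0 were higher, against 2.34% of 18323 genes lower and 1.46% higher. These were Mmp9, Mmp12, Mmp13, Timp1, Adamts4 and Adamts9, and again none of them overlapped between the groups. As above, the missing overlap is not separate support for the calls. The log2 difference was below 0 in 34 of the 37, with a median of -0.47 beside -0.12 over all genes. By limma 0 members and 0 genes of the whole table passed the adjusted threshold, while 13 members and 3517 genes had an unadjusted p under 0.05. Without replicate 3 of the CAP-treated wounds, 7 members and 1430 genes passed the adjusted threshold, and 0 did without each of the other 5 libraries. With median-ratio scaling, which moved the median of all genes by 0.11, the table split into 395 higher and 289 lower genes in place of 268 and 429, and the same 6 members were lower. This comparison and that of the days in the sham group share the 3 sham libraries of day 6, so that their directions are not independent.

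The day 6 count depended on single libraries. Without replicate 3 of the CAP-treated wounds, 12 members were lower, Adamts6, Adamts7, Mmp3, Mmp8, Mmp10 and Mmp19 being added. Without replicate 2 of the CAP-treated wounds there were 5, since Mmp12 (log2 difference -0.89) and Adamts9 (-0.89) no longer reached 2-fold and Mmp10 did. Without replicate 2 of the sham wounds, Adamts4 (-1.78) and Adamts9 (-1.46) had an unadjusted p over 0.05, as had Adamts9 (-1.61) without replicate 3 of the sham wounds. Timp1, Mmp9 and Mmp13 were lower under each of the 12 alternatives run for this comparison.

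At day 3, 1 of 38 members was higher in CAP-treated wounds, Mmp8, and 1 was lower, Mmp16, against 0.426% of 18330 genes higher and 1.16% lower. By limma 0 members passed the adjusted threshold and 6 had an unadjusted p under 0.05. The difference between the CAP effect at day 6 and that at day 3 was tested as an interaction term over all 12 libraries. It was called as lower at day 6 for 7 of 41 members and as higher for 1, against 2.73% and 2.18% of 20267 genes. The 7 were Mmp3, Mmp8, Mmp9, Mmp10, Mmp12, Mmp13 and Adamts8, and the other was Adamts19. Adamts8 and Adamts19 entered this fit only through the groups in which they were high, and with 0.3 TPM required in all 4 groups 6 members were called lower and 0 higher. By limma 0 members and 0 genes passed the adjusted threshold here, and 12 members and 2292 genes had an unadjusted p under 0.05. Without replicate 3 of sham day 3 the call was made for 5 members, and without replicate 3 of CAP day 6 for 13.

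**Figure D2:**
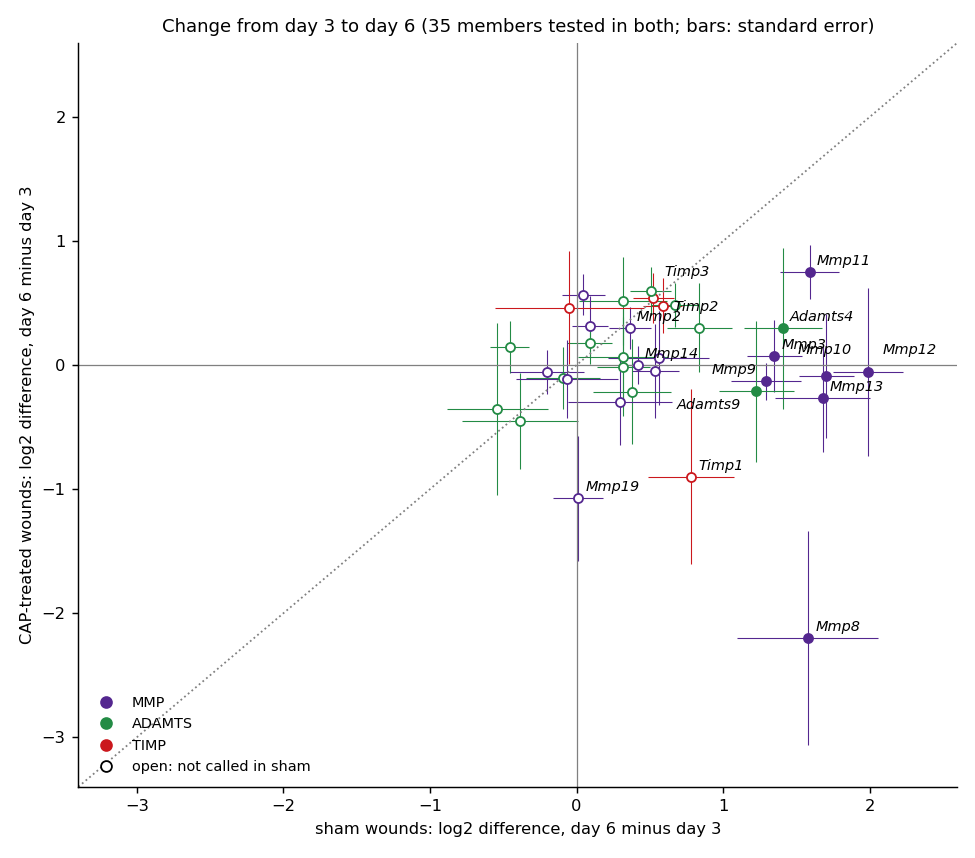
Log2 difference between day 6 and day 3 in sham wounds (horizontal axis) and in CAP-treated wounds (vertical axis) for the 35 members tested in both. Points are genes, coloured by family, with the standard error as bars, filled where the gene was called in the sham wounds, and the dotted line marks equal differences. The 9 filled points lie to the right, between 1.23 and 1.99, and 8 of them lie between -0.27 and 0.75 on the vertical axis, with Mmp8 at -2.20.

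Among the collagenases, Mmp13 and Mmp8 moved. Mmp13, the main collagenase of mouse connective tissue, was at 26.7, 47.2 and 28.2 TPM in sham wounds at day 3 and at 144, 123 and 66.8 TPM at day 6. In CAP-treated wounds it was at 28.3, 59.8 and 68.1 TPM at day 3 and 24.3, 44.5 and 60.9 TPM at day 6. The 3 sham libraries of day 6 were thus above all others except replicate 3 of CAP day 3, which exceeded the lowest of them. The rise in sham wounds was 3.20-fold (log2 difference 1.68). At day 6 the level in CAP-treated wounds was 2.61-fold lower (log2 difference -1.38, SE 0.40, limma adjusted p = 0.21), and the interaction was -1.95 (SE 0.60, limma adjusted p = 0.428).

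Mmp8, the collagenase stored in neutrophil granules, had the widest spread among the abundant MMPs. It was at 27.0, 7.18 and 7.60 TPM in sham wounds and 32.0, 53.6 and 55.0 TPM in CAP-treated wounds at day 3, without overlap, and the difference was 3.97-fold (log2 1.99, SE 0.52, limma adjusted p = 0.539). At day 6 it was at 28.2, 35.5 and 40.1 TPM in sham wounds and 7.26, 3.11 and 41.1 TPM in CAP-treated wounds. Here 2 CAP-treated libraries were below all sham libraries and the other was above them, and the gene was not called (log2 -1.79, 95% interval -3.76 to 0.18). It rose between the days in sham wounds (log2 1.58) and fell in CAP-treated wounds (log2 -2.20, SE 0.86, limma adjusted p = 0.407), where the libraries of the days overlapped. The fall was not called without any 1 of the 3 libraries of CAP day 3 (log2 -2.46, -2.09 and -2.07 without replicates 1 to 3), nor without replicate 1 (-1.99) or 2 (-1.39) of CAP day 6. The interaction, -3.78 (SE 1.10, limma adjusted p = 0.428), was the largest among the members.

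The summed level of the list of 10 neutrophil markers (S100a8, S100a9, Csf3r and others) was 6099, 1777 and 3574 TPM in the libraries of sham day 3 and 3566, 4823 and 1834 TPM in those of CAP day 3. At day 6 it was 2003, 3286 and 1731 TPM in sham wounds and 2668, 278 and 1166 TPM in CAP-treated wounds. None of the 10 was listed at 0 in all libraries, and 7 of the 10 had a mean of at least 0.3 TPM. S100a8 and S100a9, which wound keratinocytes also make, held most of this sum. Retnlg, a neutrophil gene of the same list, was at 28.8, 4.09 and 5.43 TPM in sham wounds and 20.3, 55.7 and 20.2 TPM in CAP-treated wounds at day 3, where 2 sham libraries were low for both Retnlg and Mmp8 and the other was higher for both. At day 3 the marker sums and Retnlg overlapped between the groups while Mmp8 did not. At day 6 the sum was lowest in replicate 2 of the CAP-treated wounds, as was Mmp8. Replicate 1 of these wounds had a higher sum than replicate 3 but less Mmp8 (7.26 against 41.1 TPM). Retnlg was at 12.9, 10.4 and 7.03 TPM in sham and 3.33, 5.26 and 11.8 TPM in CAP-treated wounds at day 6. Csf3r, also of the list, was at 150, 55.4 and 74.9 TPM in sham and 87.1, 108 and 91.8 TPM in CAP-treated wounds at day 3. At day 6 Csf3r was at 106, 146 and 89.8 TPM and 37.1, 26.0 and 142 TPM in the same order. The part of these cells in the Mmp8 result was not tested.

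Mmp1a and Mmp1b, the mouse counterparts of human interstitial collagenase, were low. Mmp1b had group means of 2.09, 2.06, 2.93 and 2.04 TPM in sham day 3, CAP day 3, sham day 6 and CAP day 6, and was called in none of the comparisons. Mmp1a had 0.598, 0.346, 0.165 and 0.279 TPM in the same order, and was tested only at day 3 and in the interaction, without a call. Their transcripts share sequence, 20.7% of the 31-base stretches of Mmp1b and 14.5% of those of Mmp1a being found in the other gene, so that their separate levels are uncertain. Mmp1b also shares 157 exon bases with Mmp12 on the opposite strand.

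Of the gelatinases, Mmp9 moved and Mmp2 did not reach the call. Mmp9, known from neutrophils, macrophages and wound-edge keratinocytes, was at 109, 70.4 and 69.1 TPM in sham wounds at day 3 and 237, 224 and 147 TPM at day 6. In CAP-treated wounds it was at 82.6, 105 and 98.2 TPM at day 3 and 84.5, 75.9 and 102 TPM at day 6. The 9 libraries outside sham day 6 lay between 69.1 and 109 TPM, and the 3 libraries of sham day 6 were above all of them. The rise in sham wounds was 2.45-fold (log2 1.29, SE 0.24, limma adjusted p = 0.0435), while in CAP-treated wounds the day difference was -0.13 (95% interval -0.48 to 0.23). At day 6 Mmp9 was 2.28-fold lower in CAP-treated wounds (log2 -1.19, SE 0.21, limma adjusted p = 0.205). This was the smallest unadjusted p of any member in that comparison and also in the interaction (-1.42, SE 0.31, limma adjusted p = 0.428).

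Mmp2, the constitutive gelatinase of fibroblasts, was at 482, 389 and 434 TPM in sham wounds at day 3, 366, 358 and 479 TPM in CAP-treated wounds at day 3, 641, 469 and 577 TPM in sham wounds at day 6 and 419.7, 504 and 553 TPM in CAP-treated wounds at day 6. All groups overlapped with their neighbours. The log2 difference between treatments was -0.13 at day 3 (95% interval -0.48 to 0.23) and -0.19 at day 6 (95% interval -0.58 to 0.20), so that a change of 2-fold lies outside both intervals.

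The stromelysins rose together in sham wounds. Mmp3, stromelysin-1, was at 221, 167 and 202 TPM at day 3 and 522, 383 and 618 TPM at day 6, a 2.55-fold rise (log2 1.35, SE 0.19, limma adjusted p = 0.0222). In CAP-treated wounds it was at 219.7, 307 and 214 TPM at day 3 and 308, 166 and 330.2 TPM at day 6. The 3 sham libraries of day 6 were above every CAP-treated library of that day, but the log2 difference of -0.96 (95% interval -1.66 to -0.25) was just short of 2-fold. The interaction for Mmp3 was -1.28 (SE 0.38, limma adjusted p = 0.428), and -0.96, short of the call, without replicate 2 of CAP day 6.

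Mmp10, stromelysin-2, known from migrating keratinocytes, was at 6.71, 6.38 and 4.58 TPM in sham wounds at day 3 and 21.9, 20.0 and 16.1 TPM at day 6. This 3.26-fold rise (log2 1.71, SE 0.19, limma adjusted p = 0.0146) had the smallest p of the members. CAP-treated wounds were at 5.36, 18.4 and 11.7 TPM at day 3 and 6.02, 11.3 and 14.2 TPM at day 6, lower than every sham library of day 6 (log2 -0.95, not called). The interaction was -1.79 (SE 0.58, limma adjusted p = 0.428). Mmp3 and Mmp10 share 11.4% and 11.9% of their 31-base stretches with each other, so that part of either level may belong to the other. This matters more for Mmp10, whose mean in sham day 6 was 19.3 TPM beside 508 TPM for Mmp3. How much of the Mmp10 level and of its rise may belong to Mmp3 was not tested.

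Mmp11, stromelysin-3, which is activated inside the cell and is known from stromal fibroblasts, was at 5.52, 5.16 and 5.0 TPM in sham wounds at day 3 and 16.3, 11.9 and 20.8 TPM at day 6, a 3.02-fold rise (log2 1.59, SE 0.20, limma adjusted p = 0.0165). In CAP-treated wounds it was at 6.39, 8.4 and 6.96 TPM at day 3 and 11, 10.1 and 16.4 TPM at day 6, also without overlap between the days, with a log2 difference of 0.75 that is under 2-fold. At day 6 the treatments overlapped (log2 -0.38, 95% interval -1.0 to 0.23). It was the one stromelysin outside the chromosome 9 cluster, at chr10:75923222-75936496, where it shares 155 exon bases with Chchd10 on the opposite strand (mean 24.9 TPM). The sources used here do not say whether reads were counted by strand, so part of either level may belong to the other.

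Mmp12, the macrophage metalloelastase, had the largest rise in sham wounds, from 8.62, 12.4 and 7.63 TPM at day 3 to 50.4, 32.2 and 32.4 TPM at day 6 (3.97-fold, log2 1.99, SE 0.24, limma adjusted p = 0.0146). CAP-treated wounds were at 8.26, 11.4 and 46.9 TPM at day 3, where replicate 3 stood far above the others, and at 15.7, 9.67 and 26.0 TPM at day 6. At day 6 the groups did not overlap, and CAP-treated wounds were 2.36-fold lower (log2 -1.24, SE 0.36, limma adjusted p = 0.212). The summed level of 10 monocyte and macrophage markers, none of them listed at 0 in all libraries, was 8963, 7746 and 11159 TPM in sham day 6 and 5593, 4574 and 10082 TPM in CAP day 6, with overlap. At CAP day 3 it was 5188, 6963 and 10706 TPM, highest in the library in which Mmp12 was highest, and at sham day 3 6563, 4631 and 5642 TPM. The part of these cells in the Mmp12 result was not tested. The interaction for Mmp12 (-2.04) was not called without replicate 3 of sham day 3 (-1.90), replicate 1 of sham day 6 (-1.83) or replicate 2 of CAP day 6 (-1.69).

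**Figure D3:**
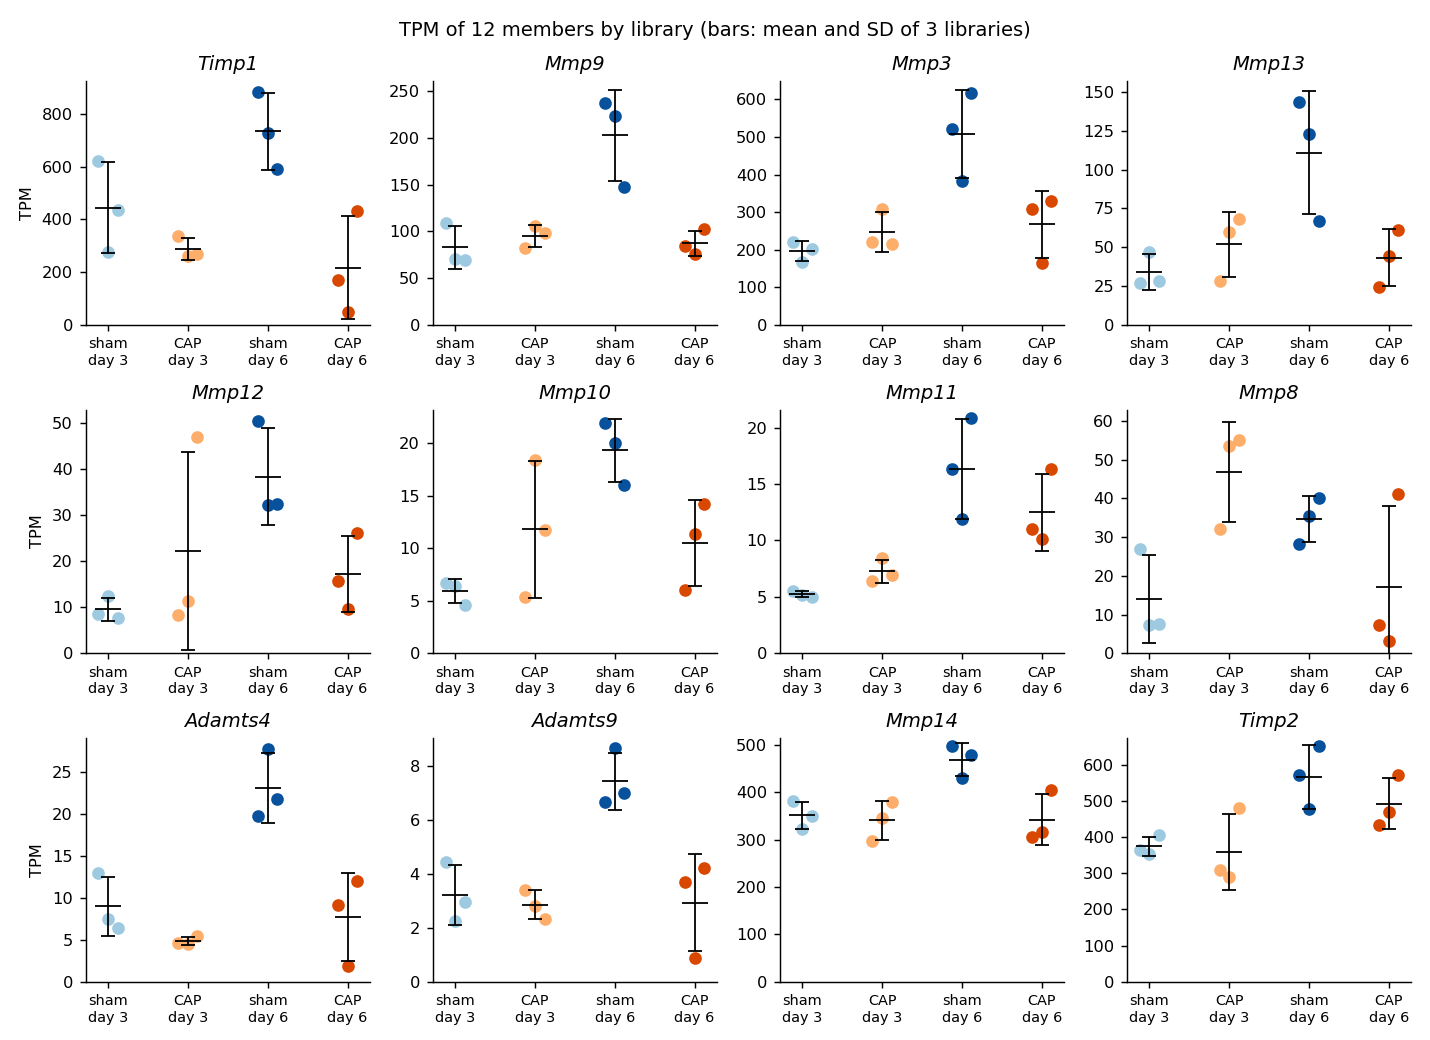
TPM of 12 members by library, with the mean and SD of each group of 3 as bars and each axis starting at 0. Sham day 6 stands above the other groups for Mmp9, Mmp3, Adamts4 and Adamts9, and Timp2 is shown as an abundant member that overlaps between treatments. For Mmp8 the lower SD bar of CAP day 6 passes below 0 and is cut off.

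Membrane-type MMPs are anchored at the cell surface, where Mmp14 activates Mmp2. Mmp14 was at 381, 323 and 351 TPM in sham wounds and 297, 346 and 380.3 TPM in CAP-treated wounds at day 3. At day 6 it was at 498, 431 and 479 TPM in sham wounds and 305, 317 and 404 TPM in CAP-treated wounds, all lower than the sham libraries, at a log2 difference of -0.46 (95% interval -0.80 to -0.13), under 2-fold. Mmp15 stayed between group means of 11.7 and 14.1 TPM. Mmp25, known from neutrophils, stayed between 1.70 and 2.51 TPM, and Mmp17 between 0.351 and 0.641 TPM, and these 3 were called in none of the comparisons.

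Mmp16 was low, at 1.37, 0.659 and 0.858 TPM in sham wounds and 0.198, 0.327 and 0.571 TPM in CAP-treated wounds at day 3, without overlap (log2 -1.22, SE 0.44, limma adjusted p = 0.713). The call was lost without replicate 1 (-0.95) or replicate 3 (-1.26) of the sham wounds and without replicate 1 (-0.94) or 2 (-1.19) of the CAP-treated wounds, and without replicate 3 of these their mean was under 0.3 TPM. At day 6 it was at 0.480, 0.934 and 0.780 TPM and 0.201, 0.240 and 0.348 TPM, again without overlap, but the mean of the CAP-treated wounds was under 0.3 TPM, and it was not tested there.

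The remaining MMPs showed smaller differences. Mmp19, known from macrophages and skin, was at 108, 70.0 and 74.8 TPM in sham day 3, 70.4, 60.5 and 190.0 TPM in CAP day 3, 80.4, 93.4 and 76.6 TPM in sham day 6 and 39.3, 29.9 and 73.8 TPM in CAP day 6. Its level at day 6 was lower in all 3 CAP-treated libraries at a log2 difference of -0.91 (95% interval -1.64 to -0.18), not called. Mmp28, epilysin, an enzyme of keratinocytes, was the one abundant MMP with all CAP-treated libraries of day 6 above the sham libraries, with group means of 15.3 ± 1.13 and 21.3 ± 1.60 TPM (SD, n = 3) and a log2 difference of 0.47, under 2-fold. The level of Mmp19 is uncertain in the same way as that of Mmp11, since it shares 789 exon bases with Tmem198b (mean 14.9 TPM). Mmp23 stayed between 61.4 and 90.7 TPM and Mmp27 between 34.0 and 49.6 TPM as group means, without a call.

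The sum of keratinocyte markers also differed at day 6, but not every marker of the list did. The sum of 10 of these, none listed at 0 in all libraries, was 31396, 38564 and 32375 TPM in sham wounds and 74936, 97748 and 47368 TPM in CAP-treated wounds, without overlap and highest in replicate 2. Krt1 was at 4010, 6224 and 5217 TPM in sham and 16381, 29718 and 12748 TPM in CAP-treated wounds. Krt10 was at 7432, 7490 and 8321 TPM and 19544, 40801 and 16989 TPM in the same order. Krt5 and Cdh1 were also higher without overlap, while Krt14, Krt6a, Krt16, Krt17, Trp63 and Dsg3 overlapped between the treatments. At day 3 it was 43078, 62160 and 50039 TPM and 64246, 60858 and 34188 TPM, with overlap. The sum of 10 endothelial markers was 384, 335 and 454 TPM in sham wounds and 289, 108 and 263 TPM in CAP-treated wounds at day 6, also without overlap, and that of 10 fibroblast markers 26973, 20174 and 23594 TPM and 17177, 16412 and 22176 TPM, with overlap. TPM is a share, so a higher keratinocyte sum and lower levels of other genes in the same library go together by construction, and its part in the day 6 differences of the members was not tested. Replicate 2 of CAP day 6 also had the highest share of TPM in its 10 most abundant genes (14.1%, others 8.27% to 11.3%) and the fewest genes at 0.3 TPM (18533, others 18768 to 19325). Over the 12 libraries the other lists summed to 2267 to 6888 TPM for skeletal muscle, 837 to 1666 TPM for adipocytes, 91.9 to 252 TPM for mast cells, 22.0 to 57.2 TPM for T and NK cells and 3.47 to 55.0 TPM for hair follicles, and at day 6 each of these sums overlapped between the treatments.

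Among the ADAMTS proteoglycanases, Adamts4 and Adamts9 moved. Adamts4, aggrecanase-1, was at 13.0, 7.52 and 6.45 TPM in sham wounds at day 3 and 19.8, 27.8 and 21.8 TPM at day 6, a 2.65-fold rise (log2 1.41) that was the sixth member past the adjusted threshold. In CAP-treated wounds it was at 4.62, 4.53 and 5.41 TPM at day 3, below every sham library of that day (log2 -0.81, under 2-fold), and at 9.22, 1.87 and 12.1 TPM at day 6. At day 6 it was 3.79-fold lower in CAP-treated wounds (log2 -1.92, SE 0.64, limma adjusted p = 0.222), with replicate 2 the lowest. Its level is uncertain where other transcripts overlap it, since the sources used here do not say whether reads were counted by strand.

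Adamts9, which cuts versican and aggrecan, was at 4.43, 2.25 and 2.97 TPM in sham wounds at day 3 and 6.66, 8.65 and 6.99 TPM at day 6 (log2 1.23). CAP-treated wounds were at 3.42, 2.81 and 2.34 TPM at day 3 and 3.69, 0.880 and 4.22 TPM at day 6, where every library was below the sham libraries (log2 -1.57). The more abundant Adamts1, Adamts5 and Adamts15 were not called in any comparison. Adamts1 had group means of 57.7, 49.3, 71.9 and 54.4 TPM (sham day 3, CAP day 3, sham day 6, CAP day 6), Adamts5 of 34.3, 26.1, 33.3 and 25.2 TPM, and Adamts15 of 40.5, 39.2, 47.9 and 43.8 TPM.

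Adamts1 and Adamts5 are neighbours on chromosome 16, 108 kb from end to end, and Adamts15 and Adamts8 on chromosome 9, 64.7 kb from end to end. Adamts8 was at 0.305, 0.213 and 0.111 TPM in sham day 3, 0.354, 0.601 and 0.214 TPM in CAP day 3, 0.385, 0.542 and 0.667 TPM in sham day 6 and 0.198, 0 and 0.336 TPM in CAP day 6, where it was listed at 0 in replicate 2. It passed the filter of the interaction (log2 -2.03) only through the groups in which it was high, so that this is given as a value only. It was not tested with 0.3 TPM in all 4 groups, and the call was lost with a pseudocount of 1 TPM (-0.58) and without replicate 3 of sham day 3 (-1.78), replicate 2 of CAP day 3 (-1.73) or replicate 3 of sham day 6 (-1.88). Adamts20 had group means between 0.303 and 0.507 TPM.

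The procollagen N-proteinases Adamts2, Adamts3 and Adamts14, which remove the amino-terminal propeptide of fibrillar procollagens, were called in none of the 5 comparisons. Adamts2 was the most abundant ADAMTS gene, with means of 65.1 ± 8.29 TPM in sham day 3, 51.5 ± 10.8 TPM in CAP day 3, 92.7 ± 13.5 TPM in sham day 6 and 77.4 ± 13.2 TPM in CAP day 6 (SD, n = 3). It was higher at day 6 than at day 3 in both treatments without overlap, at log2 differences of 0.51 and 0.60, both under 2-fold. All CAP-treated libraries of day 3 were below the sham libraries for Adamts14, with means of 19.3 and 30.4 TPM and a log2 difference of -0.68. Adamts3 had means between 0.341 and 0.848 TPM.

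Adamts7 and Adamts12, which cut cartilage oligomeric matrix protein, were not called. At day 6 every CAP-treated library was below every sham library for both, with log2 differences of -0.90 for Adamts7 (5.85 against 10.3 TPM) and -0.36 for Adamts12 (9.19 against 11.9 TPM). Adamts7 shares 122 exon bases with Tbc1d2b on the opposite strand (mean 42.0 TPM), so its level too is uncertain. Among the others, Adamts10 had group means between 19.8 and 25.8 TPM, Adamts6 between 1.22 and 2.27 TPM, Adamts17 between 0.520 and 0.783 TPM, and Adamts18 between 0.276 and 0.774 TPM.

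Among the members whose group mean crossed the limit of 0.3 TPM between the days were Adamts16 in both treatments and Adamts19 in sham wounds. Adamts8, Adamts18 and Mmp1a also crossed it in sham wounds, and Adamts8, Mmp1a and Mmp16 in CAP-treated wounds. Adamts18 was at 0.163, 0.365 and 0.301 TPM in sham day 3 and 0.672, 0.501 and 1.15 TPM in sham day 6, without overlap. Adamts16 had means of 0.264 and 0.195 TPM at day 3 and 1.20 and 0.766 TPM at day 6 (sham, then CAP), and its days did not overlap in either treatment. Adamts19 was at 1.54, 1.64 and 2.33 TPM in sham day 3, 0.330, 0.126 and 1.94 TPM in CAP day 3, 0.175, 0.218 and 0.0391 TPM in sham day 6 and 0.174, 0.336 and 0.476 TPM in CAP day 6. A gene that passes a filter through its high group alone had to differ, so such differences are given without a test. In CAP-treated wounds the days overlapped for Adamts19 (log2 -0.51, 95% interval -2.49 to 1.47), and it was not called. The interaction of Adamts19 (log2 2.54) met the call through a filter of 0.3 TPM in at least 1 group, and it is given as a value only. It was not tested with 0.3 TPM in all 4 groups, and the call was lost with a pseudocount of 1 TPM (0.99) and without any 1 of 5 libraries (1.86 without replicate 2 and 2.32 without replicate 1 of CAP day 3, 2.36 without replicate 3 of sham day 3, 2.18 without replicate 3 of sham day 6 and 2.30 without replicate 3 of CAP day 6).

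Of the 4 TIMPs, Timp1 fell below the sham level in CAP-treated wounds at day 6, and the other 3 were called in no comparison. Timp1, a secreted inhibitor of most MMPs that is induced in injured tissue, was at 622, 276 and 434 TPM in sham wounds and 335, 261 and 268 TPM in CAP-treated wounds at day 3. At day 6 it was at 881, 727 and 592 TPM in sham wounds and 169, 49.6 and 430.1 TPM in CAP-treated wounds. Every CAP-treated library of day 6 was below every sham library of that day, and replicate 2, at 49.6 TPM, was the lowest of the 12. The level was 4.72-fold lower (log2 -2.24, SE 0.70, limma adjusted p = 0.217, exact permutation p = 0.1), the largest log2 difference of any member in that comparison, and -1.43 without replicate 2 and -2.98 without replicate 3 of the CAP-treated wounds. At day 3 the groups overlapped (log2 -0.56, 95% interval -1.23 to 0.12), and the interaction of -1.68 (95% interval -3.54 to 0.18) was not called. Without replicate 3 of CAP day 6 the interaction was -2.43 and called, so that for Timp1 the 2 effects were not shown to differ with all libraries. Timp1 lies inside an intron of Syn1 on the opposite strand (Syn1 mean 3.07 TPM), at chrX:20870166-20874735.

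Timp2, an inhibitor that also helps Mmp14 to activate Mmp2, was at 364, 354 and 406 TPM in sham day 3, 310.0, 289 and 481 TPM in CAP day 3, 571, 477 and 653 TPM in sham day 6 and 435, 471 and 571 TPM in CAP day 6. The treatments overlapped at both days, and the log2 difference at day 6 was -0.20 (95% interval -0.59 to 0.18), which does not hold 2-fold. Between the days it was higher at day 6 in sham wounds without overlap, by 0.59 on the log2 scale.

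Timp3, which is bound to the matrix and also inhibits ADAMTS enzymes, was at 39.9, 48.6 and 48.6 TPM in sham day 3, 35.5, 26.1 and 41.9 TPM in CAP day 3, 74.3, 54.7 and 69.3 TPM in sham day 6 and 42.7, 48.7 and 58.1 TPM in CAP day 6. It was higher at day 6 in both treatments (log2 0.52 and 0.54), and the treatments overlapped at both days. Timp4 was near the limit in every library, at 0.527, 0.331 and 0.439 TPM, 0.357, 0.165 and 0.399 TPM, 0.503, 0.169 and 0.711 TPM and 0.379, 0.314 and 0.701 TPM in the same order.

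Summed over the family, the TIMP level was 1527, 1259 and 1315 TPM in sham day 6 and 647, 569.6 and 1060 TPM in CAP day 6, without overlap. Timp1 made up 57.7, 57.7 and 45 percent of it in the 3 sham libraries and 26.1, 8.70 and 40.6 percent in the 3 CAP-treated libraries. The summed MMP level at day 6 was 2420, 1960 and 2248 TPM in sham wounds and 1354, 1293 and 1793 TPM in CAP-treated wounds, also without overlap. At day 3 it was 1549, 1227 and 1358 TPM and 1246, 1450 and 1708 TPM, with overlap. Both sums were therefore lower together at day 6, and the ratio of the MMP sum to the TIMP sum was 1.58, 1.56 and 1.71 in sham wounds and 2.09, 2.27 and 1.69 in CAP-treated wounds, with overlap through replicate 3. At day 3 the ratio was 1.51, 1.81 and 1.53 in sham wounds and 1.83, 2.51 and 2.16 in CAP-treated wounds, where the highest sham library (1.81) was just below the lowest CAP-treated library (1.83). These are ratios of RNA levels and not of active enzyme to inhibitor, and they were not tested.

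**Figure D4:**
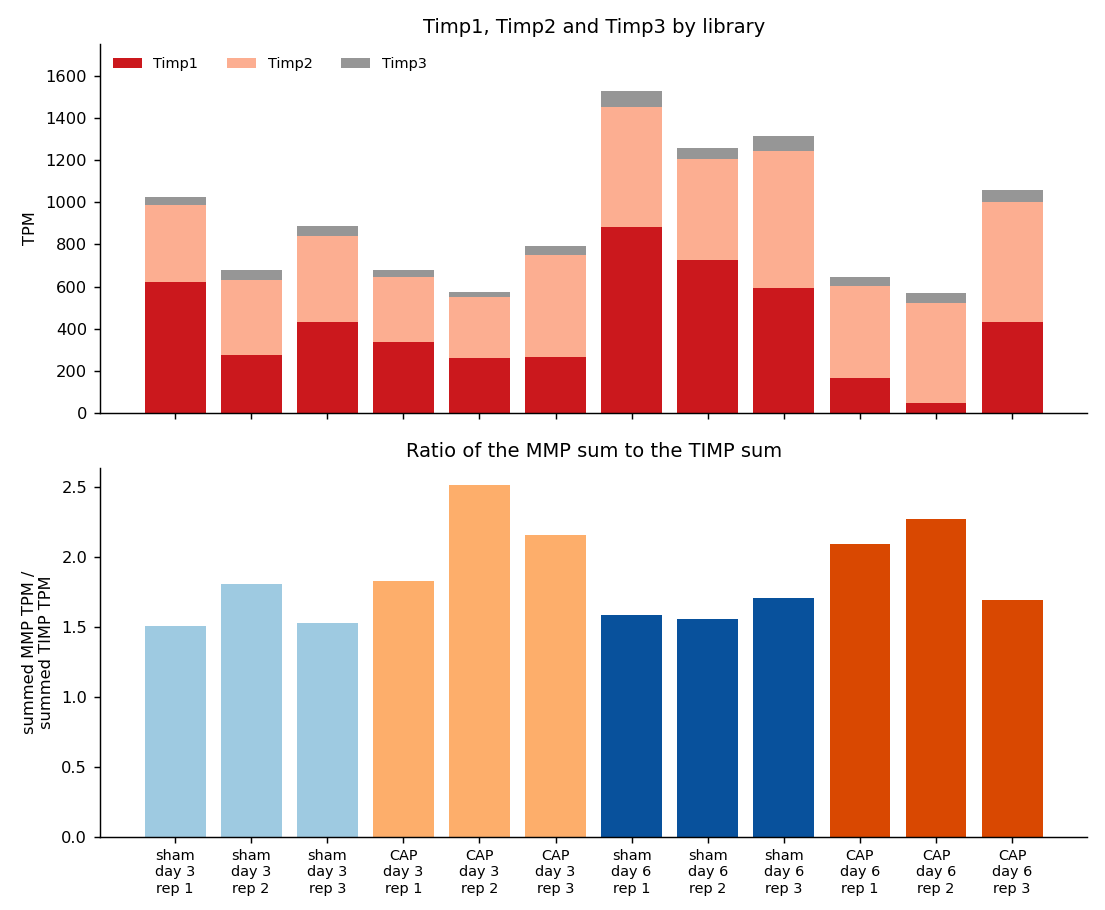
Upper plot, TPM of Timp1, Timp2 and Timp3 stacked by library. Lower plot, the ratio of summed MMP to summed TIMP TPM in the same 12 libraries, coloured by group. The Timp1 part (red) is tallest in sham day 6 and nearly absent in replicate 2 of CAP day 6, while the Timp2 part differs less between libraries.

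Within pairs of enzyme and inhibitor, the ratio of Timp2 to Mmp2 stayed between 0.755 and 1.13 in all 12 libraries. The ratio of Timp1 to Mmp9 was 3.71, 3.25 and 4.03 in sham day 6 and 2.0, 0.653 and 4.21 in CAP day 6, so that replicate 3 of the CAP-treated wounds was above all sham libraries while the other 2 were below them. The 2 genes were thus not lowered in a fixed proportion in each library.

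The chromosome 9 cluster held 5 of the 7 MMPs that rose in sham wounds. Of its 7 genes tested between the days in sham wounds, 5 rose, namely Mmp3, Mmp8, Mmp10, Mmp12 and Mmp13. Beside these, 4 of the 29 other members rose, 2 of them among the 11 other MMPs tested, as did 2.13% of all genes. At day 6, 2 of its 7 genes were lower in CAP-treated wounds, beside 4 of the 30 other members. Of the 10 other MMPs 1 was lower, and of all genes 2.34%. In the interaction 5 of 8 were called lower, beside 2 of 33, Mmp9 and Adamts8. There 1 of the 11 other MMPs and 2.73% of all genes were called lower. Of the 5 that rose, Mmp3, Mmp10, Mmp12 and Mmp13 carry the AP-1 heptamer shown above and Mmp8 does not. Mmp1b and Mmp1a carry it and were called in no comparison, and Mmp27, without it, was not called either. Genes of a cluster are not independent observations, and nothing particular to the cluster was tested.

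**Figure D5:**
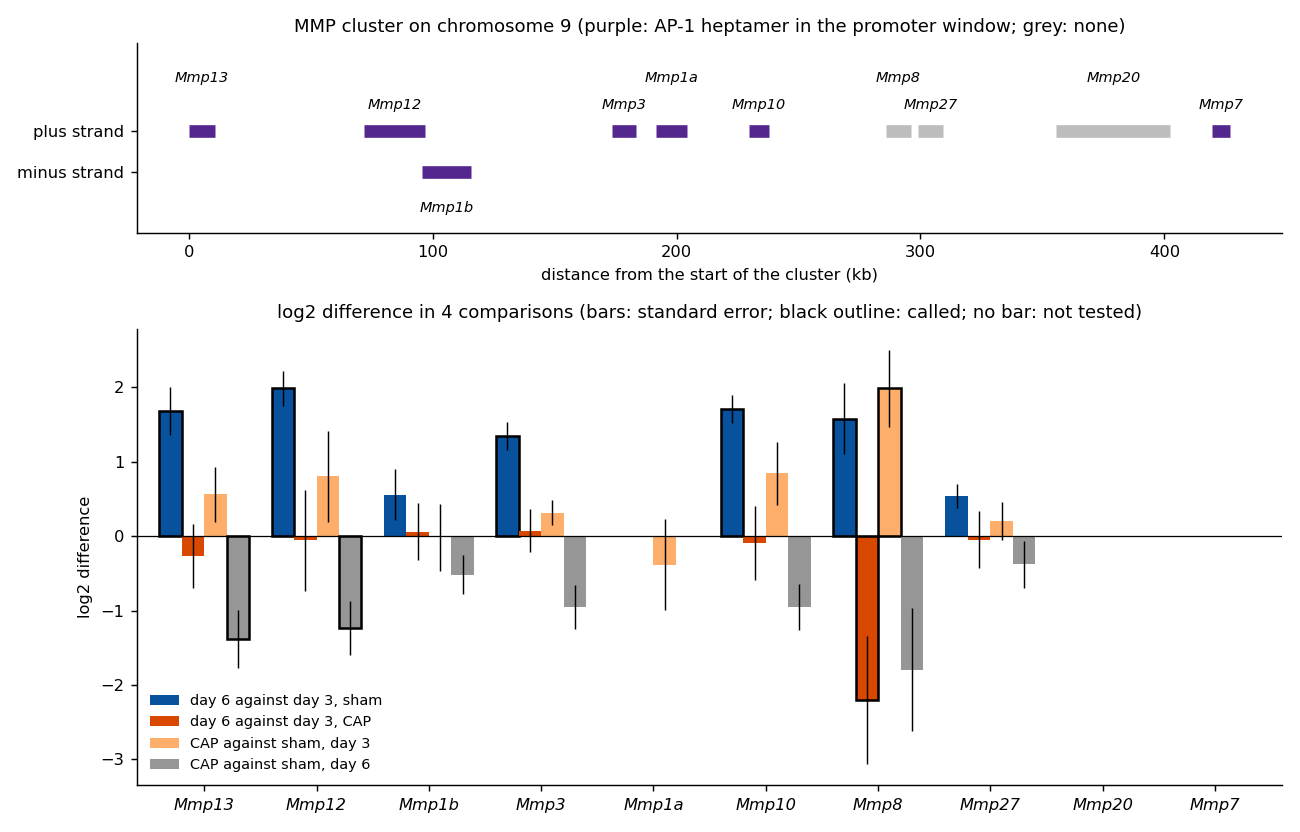
Upper plot, the 10 MMP genes of the chromosome 9 cluster by distance in kb from its start, on their strands, in purple where the AP-1 heptamer is in a promoter window. Lower plot, the log2 difference of each gene in 4 comparisons with its standard error, outlined in black where called, without a bar where the gene was not tested. Blue bars (days in sham wounds) are above 1 for Mmp13, Mmp12, Mmp3, Mmp10 and Mmp8, and grey bars (CAP against sham at day 6) are below 0 for the 7 genes tested.

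Other genes of metalloproteinase biology were counted in the same way. Of 38 related genes (ADAM proteases, ADAMTS-like proteins, the plasminogen system and other regulators), 31 were tested between the days in sham wounds, and 2 rose and 0 fell (2.13% and 1.61% of all genes). Serpine2, protease nexin-1, was among them (41.2 against 19.6 TPM, log2 1.07). At day 6, 0 of 32 were higher in CAP-treated wounds and 4 were lower (1.46% and 2.34% of all genes), among them Thbs1 (149 against 351 TPM, log2 -1.41), Adam12 (18.7 against 36.5 TPM, log2 -1.13) and Plaur, the urokinase receptor (40.9 against 73.5 TPM, log2 -1.01). At day 3, 0 of 31 were called (0.426% of all genes higher and 1.16% lower). Between the days in CAP-treated wounds 1 of 31 was called, Thbs1, which fell by 1.24 on the log2 scale (1.52% of all genes fell). The interaction was called lower for 4 of 32 (2.73% of all genes), among them Thbs1, Adam8 and Plaur.

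A list of 18 matrix proteins that these enzymes cut was read against the same background. At day 6, 1 of 17 tested was lower in CAP-treated wounds, against 2.34% of all genes, and 0 were higher, against 1.46%. The lower gene was Col4a1, a chain of basement membrane collagen (205 against 386 TPM, log2 -1.09). In sham wounds 4 of 17 rose between the days (2.13% of all genes), Col4a1 (log2 1.44), Col4a2 (log2 1.30), the proteoglycan Bgn (log2 1.02) and Vwf (log2 1.09), the substrate of Adamts13. In CAP-treated wounds 1 of 16 rose (1.27% of all genes), Eln, the elastin gene (145 against 61.1 TPM, log2 1.09), and at day 3 0 of 16 were called. In the interaction Col4a1 was called lower (log2 -1.20), 1 of 17 (2.73% of all genes).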

How the data were processed

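Total RNA from 12 wound samples was turned into libraries (SureSelect XT HS2 mRNA kit), and reads were handled with bcl2fastq and Trimmomatic 0.36 per the labels. StringTie estimates were deposited by the authors as 1 table of TPM per library, in which 0.0001 stands for 0 (0 columns belong to other samples). The sources used here name neither the aligner nor the handling of strand. Positions in the tables match GENCODE M21 (GRCm38) for all 46 members.

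The members and gene lists were chosen with earlier results of these data known. The fit used limma 3.58.1 (R 4.3.3, intensity trend, no robust estimation) after a filter of 0.3 TPM in both groups, or in at least 1 group for the interaction, and was tested on simulated data. Tables were read and plots drawn in Python 3.11.15 (pandas 2.3.3, numpy 2.4.6, matplotlib 3.10.9). Every member at 0.3 TPM or more was named, with values by library for the TIMPs, the 6 most abundant members and every called member, and SE and adjusted p for at most 5 called members per comparison. Mmp19 was also given by library, chosen after its values were seen. Some genes counted in the lists are not reported here by name. Alternatives were a pseudocount of 1 TPM, other filters, median-ratio scaling, a joint fit of 12 libraries, the replicate number as a block, and leaving out each library. Pearson's r between libraries, across 17784 genes that are not independent replicates, was 0.958 to 0.979 within groups and 0.935 to 0.980 between groups.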

Additional observations from a re-analysis of the deposited data

Results flagged for a closer look

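For 8 members the CAP effect differed between the days by the interaction term at an unadjusted p under 0.05 and at least 2-fold, while limma with Benjamini-Hochberg adjustment gave an adjusted p of 0.428 for each of them. The log2 difference of the 2 effects, day 6 minus day 3, was -1.42 for Mmp9, -3.78 for Mmp8, -1.28 for Mmp3, -1.95 for Mmp13, -1.79 for Mmp10, -2.04 for Mmp12 and -2.03 for Adamts8, and 2.54 for Adamts19. Mmp9, Mmp8, Mmp13 and Mmp10 were called under each of the 17 alternatives run for this comparison. The calls of Mmp3, Mmp12, Adamts8 and Adamts19 were each lost without at least 1 single library. Adamts8 and Adamts19 passed the filter on low values only through the groups in which they were high, and with 0.3 TPM required in all 4 groups they were not tested.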

How the results depend on the processing

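With a pseudocount of 1 TPM in place of 0.1, the genes called over the whole table numbered 154 in place of 290 at day 3, 385 in place of 697 at day 6, 405 in place of 688 between the days in sham wounds, 299 in place of 507 in CAP-treated wounds and 580 in place of 994 in the interaction. With no filter they numbered 568 at day 3, 1156 between the days in sham wounds and 842 in CAP-treated wounds, and with the filter in at least 1 group 454 at day 3. Leaving out 1 library at a time gave 204 to 510 at day 3, 311 to 1483 at day 6 (311 without replicate 2 and 1483 without replicate 3 of the CAP-treated wounds), 382 to 886 between the days in CAP-treated wounds and 657 to 1777 in the interaction.

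The called members were 1 with a pseudocount of 1 TPM at day 3, in place of 2, since Mmp16 was lost. Between the days in CAP-treated wounds they were 2, in place of 1, with the filter in at least 1 group, with the joint fit and with the replicate block. Without 1 library at a time they were 1 to 2 at day 3, 5 to 12 at day 6, 0 to 3 between the days in CAP-treated wounds and 5 to 13 in the interaction. In sham wounds the 9 members were called under each alternative except Mmp8 in the joint fit of 12 libraries, which left 0 members and 0 genes past the adjusted threshold (8 members called). With the filter in at least 1 group, and with no filter, 12 members rose and 1 fell. The added genes were Adamts8, Adamts16 and Adamts18, and Adamts19, which fell. Each of these had a sham mean under 0.3 TPM at day 3 or at day 6. Without replicate 1 of sham day 3, Adamts7 and Timp1 were added. The log2 difference of Mmp3 between the days in CAP-treated wounds, 0.07, was not called and ran from -0.11 to 0.39 without 1 library at a time. Over the single genes described, 517 recomputed values kept their direction and call, 32 lost the call, 6 gained it and 3, those of Mmp3, turned in sign. The cause of these changes was not tested.

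Same-numbered libraries of different groups deviated together in 2 of 12 pairs (correlation over 0.1, range -0.139 to 0.256), so the numbers were not taken to pair the wounds. With the replicate block, 7 members were lower at day 6 in place of 6, and 2 were called at day 3, with Adamts19 in place of Mmp16. TPM carries no depth, and 3 libraries per group limit the precision of every value.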
